A study of Mus musculus with 4 samples.

Results

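The 9 genes described here encode ligands that draw monocytes into tissue or keep macrophages alive, and they were taken by name from the 35905 genes quantified: the CC chemokines Ccl2, Ccl7, Ccl8, Ccl6 and Ccl9, the chemokines Cxcl12 and Cx3cl1, and the CSF1R ligands Csf1 and Il34. Poly-A selected RNA was sequenced from LLC (Lewis lung carcinoma) cells, a transplantable mouse lung tumour line, grown as subcutaneous flank tumours in C57BL/6 mice for 4 weeks and sorted as TdTomato-positive, CD45-negative cells. PAD4-DN hosts were Mrp8Cre+ Padi4fl/fl, and WT hosts were Mrp8Cre- Padi4fl/fl, so that every host carried the floxed alleles of Padi4, the gene of peptidylarginine deiminase 4. Mrp8Cre is a driver used to delete floxed genes in neutrophils, and the cancer cells themselves were not modified by it. There were 2 PAD4-DN and 2 WT libraries, and the labels do not state that replicates came from separate mice or tumours, so that a p-value reflects no more than the spread among the 4 libraries, which may be technical. In the sorted cells Padi4 had 6 and 0 estimated counts in PAD4-DN replicates 1 and 2, against 0 and 2 in WT replicates 1 and 2, which checks neither the labels nor the deletion in host neutrophils.

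Monocytes leave the bone marrow and enter tissue chiefly along gradients of CCR2 ligands, of which CCL2 and CCL7 are the main ones in mice. CXCL12 holds CXCR4-bearing cells in their niches and is typically made by stromal cells, and CX3CL1 is a membrane-tethered chemokine read by CX3CR1 on monocytes and macrophages. Once in the tissue, monocyte-derived macrophages depend on signalling through CSF1R, which binds both CSF1 and IL-34. In many mouse tumours CCL2 and CSF1 from cancer cells feed this axis.

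The promoters of the 4 genes whose levels set libraries apart without regard to genotype (Ccl8, Ccl6, Ccl9 and Cxcl12, values further on) are shown first, since a pair of them, Ccl6 and Ccl9, are chromosomal neighbours with a shared pattern while Cxcl12 followed a different one. Sequences are from RefSeq on GRCm38.p6, run 5′ to 3′ on the gene's strand from 250 bases before to 50 after the annotated start, and were found for 6 of the 9 genes; Ccl2, Ccl7 and Il34 were not among them. Capitals mark matches on either strand to TATAAA (the TATA box), GGGCGG (the GC box), GGAAGT (the core bound by ETS factors), TGANTCA (the AP-1 site) or the kappaB consensus. The windows lie at chr11:82114935-82115234 on the plus strand for Ccl8, chr11:83593038-83593337 on the minus strand for Ccl6, chr11:83578587-83578886 on the minus strand for Ccl9 and chr6:117168285-117168584 on the plus strand for Cxcl12.
Ccl8: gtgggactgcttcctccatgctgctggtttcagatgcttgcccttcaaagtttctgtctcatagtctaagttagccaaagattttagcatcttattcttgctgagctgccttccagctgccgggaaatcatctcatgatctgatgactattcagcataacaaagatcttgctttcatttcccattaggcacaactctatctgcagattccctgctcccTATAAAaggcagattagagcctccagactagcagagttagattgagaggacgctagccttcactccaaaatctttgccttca
Ccl6: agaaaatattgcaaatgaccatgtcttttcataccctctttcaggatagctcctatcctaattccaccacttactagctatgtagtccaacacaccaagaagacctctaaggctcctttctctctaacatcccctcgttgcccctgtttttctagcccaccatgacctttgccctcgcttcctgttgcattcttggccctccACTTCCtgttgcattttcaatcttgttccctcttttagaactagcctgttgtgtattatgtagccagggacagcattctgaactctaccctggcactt
Ccl9: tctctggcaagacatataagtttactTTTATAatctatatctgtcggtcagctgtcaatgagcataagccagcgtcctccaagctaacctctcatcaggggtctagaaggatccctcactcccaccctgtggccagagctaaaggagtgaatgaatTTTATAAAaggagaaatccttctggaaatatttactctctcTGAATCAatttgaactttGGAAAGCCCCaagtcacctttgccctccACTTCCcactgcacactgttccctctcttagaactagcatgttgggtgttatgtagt
Cxcl12: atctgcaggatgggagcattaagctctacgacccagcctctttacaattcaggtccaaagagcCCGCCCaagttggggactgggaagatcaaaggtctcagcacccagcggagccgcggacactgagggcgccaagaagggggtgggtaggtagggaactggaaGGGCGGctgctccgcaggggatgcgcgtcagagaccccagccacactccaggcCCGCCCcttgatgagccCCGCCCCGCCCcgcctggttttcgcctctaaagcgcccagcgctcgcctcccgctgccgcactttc

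The Ccl8 window held a TATA box beginning 32 bases before the start and no other match, with 44.7% G and C. Ccl6 and Ccl9 windows each held an ETS core near the start, beginning 48 bases before it in Ccl6 and 7 bases before it in Ccl9, with 45.3% and 43.7% G and C. Their longest run in common was GCCCTCCACTTCC, 13 bases that include this core, against 7 to 10 bases for the other pairs among the 6 windows. The Ccl9 window, like that of Ccl8, held TATAAA, with matches that overlap each other at one place, and it alone of the 4 held TGANTCA and the kappaB consensus. The Cxcl12 window was richer in G and C (64.7%) and held 5 GC boxes and none of the other motifs; the Csf1 window, not printed, had 58.7% G and C, 2 GC boxes and a kappaB match. Over all 32851 promoter windows of this length, the median G and C content was 52.7%, and 13.6% held TATAAA, 35.7% GGGCGG, 23.8% GGAAGT, 7.81% TGANTCA and 8.46% the kappaB consensus. These matches describe the letters of the windows and are not evidence of binding.

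The libraries held 20036322 and 24142484 estimated counts in PAD4-DN replicates 1 and 2, and 23414984 and 25327974 in WT replicates 1 and 2. They differed in markers of other cells, for the most part in ways that crossed the genotypes. Summed over 12 fibroblast markers the level was 6920 and 4409 TPM (transcripts per 1000000, a value scaled by transcript length) in PAD4-DN replicates 1 and 2, against 4361 and 4910 TPM in WT replicates 1 and 2. Most of this sum was Col3a1, at 5100 and 2754 TPM in PAD4-DN, against 3060 and 3398 TPM in WT. Whether Col3a1 transcripts came from other cells was not tested. Dcn was also high in all libraries, but Col1a1 was at 652 and 16.9 CPM (counts per 1000000) in PAD4-DN, against 16.0 and 531 CPM in WT. PAD4-DN replicate 1 and WT replicate 2 thus stood apart by type I collagen. The TdTomato reporter was not analysed here; the epithelial keratin gene Krt18, looked at after the results were known, was at 178 and 158 CPM in PAD4-DN and 210.2 and 188 CPM in WT. The 9 pan-leukocyte markers summed to 50.9 and 6.52 TPM in PAD4-DN, against 19.9 and 24.4 TPM in WT, with Ptprc, the gene of CD45, at 5.42 and 0.713 CPM in PAD4-DN and 2.20 and 1.71 CPM in WT. The 16 macrophage and monocyte markers ran likewise, at 157 and 25.2 TPM in PAD4-DN and 61.2 and 73.7 TPM in WT, with none of either list at 0 counts in any library. T-cell Cd3e had at most 6 counts per library, but Cd3d had 166 and 101 counts in PAD4-DN, against 143 and 72 counts in WT. Haemoglobin Hbb-bs was at 50.4 and 1.13 CPM in PAD4-DN, against 17.9 and 1.39 CPM in WT, and S100a8 of neutrophils at 3.95 and 0.713 CPM, against 3.38 and 0.317 CPM. Some markers were higher in both PAD4-DN libraries, as were 15.4% of all genes tested. They were Dpt and Fap of the 12 fibroblast markers, and Cxcr2 and Mmp8 of the 6 neutrophil markers tested. Rac2 of the 9 pan-leukocyte markers was the other. Of these 5 genes, named after their values were seen, Dpt had the smallest p, at 255 and 180.4 CPM in PAD4-DN, against 135 and 154 CPM in WT (edgeR unadjusted p = 0.0277, adjusted p = 0.988). The 15 macrophage and monocyte, 9 endothelial, 7 erythroid and platelet and 2 T- and B-cell markers tested all overlapped between the genotypes. Separation with both PAD4-DN libraries higher was thus seen in 2 of 12 fibroblast, 2 of 6 neutrophil and 1 of 9 pan-leukocyte markers. The share over all genes tested was 15.4%, and no list was tested as a set against it. In bulk samples fewer cells of a type and less RNA per cell cannot be told apart.

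The comparison asked whether expression in tumour cells differs when host neutrophils lack Padi4. None of the 9 ligand genes passed an adjusted p of 0.05 by edgeR's quasi-likelihood test, nor did any of the 13718 genes tested (0%); at an unadjusted p under 0.05 there were 364 genes (2.65%). Of the 9, Ccl7 alone was among these, on the side higher in PAD4-DN (1.23% of all genes tested), and 0 were on the lower side (1.42%). DESeq2 called 11 genes (0.0802%) and limma-voom 0, with 0 of the 9 ligand genes among them. Ccl2 and Ccl7, the members with the highest TPM, were higher in both PAD4-DN libraries than in both WT libraries, which was true of 15.4% of all genes tested. Cx3cl1 and Csf1 were lower in both (17.4%), so that 4 of the 9 did not overlap in CPM, against 32.8% of all genes tested. The median log2 fold change over the 9 genes was -0.05, against 0.01 over all genes tested, and 4 of the 9 were positive.

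**Figure D1:**
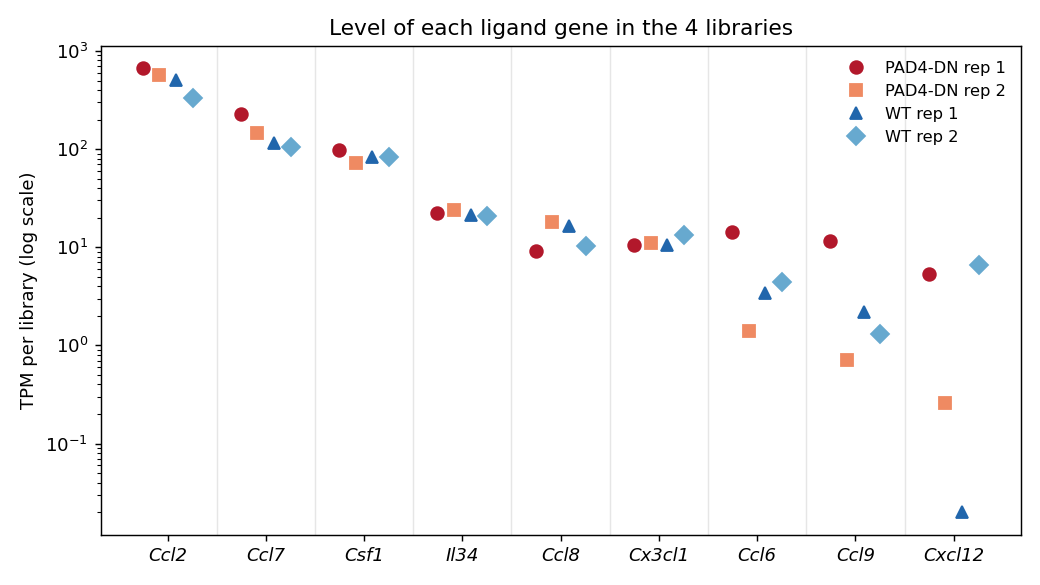
TPM of the 9 ligand genes (log scale) in each of the 4 libraries, 1 symbol per library and no error bars, ordered by mean level. Ccl2 and Ccl7 lie highest, with both PAD4-DN symbols above both WT symbols, while Cxcl12, Ccl9 and Ccl6 spread over the widest range.

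On the TPM scale the levels fell into the same leading order in every library: Ccl2, then Ccl7, Csf1 and Il34. Ccl2, Ccl7 and Csf1 together made up 93.1% and 93.5% of the summed TPM of the 9 genes in PAD4-DN replicates 1 and 2, against 92.9% and 90.2% in WT replicates 1 and 2. The sum itself was 1067 and 850 TPM in PAD4-DN and 760 and 578 TPM in WT, mostly through Ccl2. Neighbours in this order did not overlap between libraries down to Il34, which at 20.9 to 23.7 TPM lay above Ccl8 at 9.16 to 18.0 TPM. The Il34 level includes noncoding transcripts, given further on, and without them Il34 lay below Ccl8 in PAD4-DN replicate 2 and WT replicate 1. Below Il34 the ranges of Ccl8, Cx3cl1 and Ccl6 overlapped, as did those of Ccl6, Ccl9 and Cxcl12, so that no full order could be given. Cxcl12, at 0.0198 to 6.58 TPM, did lie below Ccl8 and below Cx3cl1 at 10.5 to 13.3 TPM. Within each library Ccl6 was above Ccl9 in TPM summed over transcripts. For coding transcripts this did not hold in WT replicate 1, with Ccl6-201 at 1.04 TPM and Ccl9-201 at 1.52 TPM.

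Ccl2, the principal CCR2 ligand, was at 668 and 576 TPM in PAD4-DN replicates 1 and 2, against 509 and 333 TPM in WT replicates 1 and 2. In TMM-scaled CPM it was at 268 ± 36.7 in PAD4-DN and 190 ± 58.3 in WT (mean ± SD, n = 2 each). Both PAD4-DN libraries were above both WT libraries, and WT replicate 2 was the low one. The log2 fold change was 0.50 (SE 0.24, edgeR adjusted p = 0.988), and leaving out WT replicate 2 brought it to 0.21, while leaving out WT replicate 1 brought it to 0.85.

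Ccl7, a second CCR2 ligand that lies next to Ccl2 on chromosome 11, was at 227 and 147 TPM in PAD4-DN replicates 1 and 2, against 114 and 105 TPM in WT replicates 1 and 2. In CPM this was 75.1 ± 22.3 in PAD4-DN and 46.8 ± 4.97 in WT (mean ± SD, n = 2 each). The WT libraries lay close together and PAD4-DN replicate 1 was the high one. For Ccl7 the log2 fold change was 0.68 (SE 0.23, edgeR unadjusted p = 0.0265, adjusted p = 0.988), a ratio of 1.60, and it was 0.33 without PAD4-DN replicate 1. Ccl7 ran at 34.0% and 25.6% of the Ccl2 TPM in PAD4-DN, against 22.5% and 31.5% in WT, so the proportion between the neighbours crossed the genotypes.

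**Figure D2:**
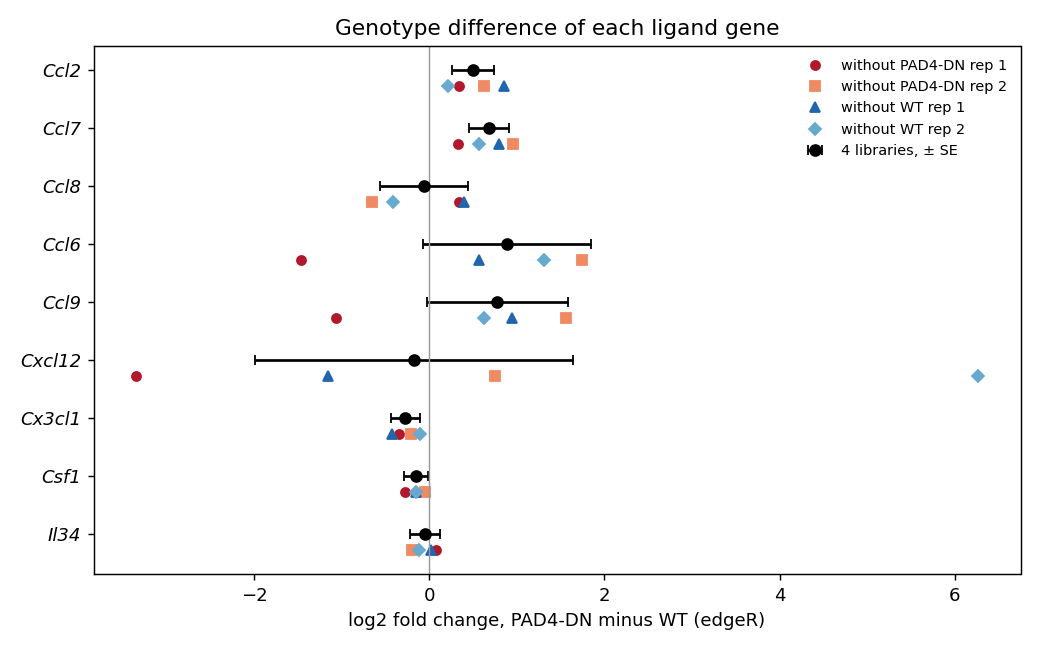
Log2 fold change, PAD4-DN minus WT, of the 9 ligand genes by edgeR with its SE (black) and the same value with each library left out (coloured, below). Ccl2 and Ccl7 stay right of 0 in every fit shown, Cx3cl1 and Csf1 left of it, and Ccl8, Ccl6, Ccl9, Cxcl12 and Il34 change side with the library left out.

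Ccl2 reads were divided between the coding transcript Ccl2-201, which encodes 148 residues, and Ccl2-202, annotated as retaining an intron. The coding transcript was at 566 and 552 TPM in PAD4-DN replicates 1 and 2, against 499 and 294 TPM in WT replicates 1 and 2. Ccl2-202 was at 103 and 23.8 TPM in PAD4-DN, against 10.4 and 39.1 TPM in WT, which made it 15.4% and 4.13% of Ccl2 TPM in PAD4-DN and 2.04% and 11.7% in WT. The coding transcript therefore kept both PAD4-DN libraries above both WT libraries, while the intron-retaining one was highest in PAD4-DN replicate 1 and next in WT replicate 2. With coding transcripts alone, a choice made after the data were seen, the log2 fold change of Ccl2 was 0.41 (SE 0.29), and that of Ccl7, which has a single transcript, 0.70 (SE 0.23).

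Fos, Zfp36 and Tnfaip3 had the same order over the libraries as Ccl2-202. Fos, an AP-1 subunit induced within minutes of stimulation, was at 866 and 286 CPM in PAD4-DN replicates 1 and 2, against 114 and 540 CPM in WT replicates 1 and 2. Zfp36, which encodes a protein that speeds the decay of cytokine mRNAs, was at 540 and 130 CPM in PAD4-DN and 44.1 and 312 CPM in WT. The NF-kB inhibitor gene Tnfaip3 followed at 174 and 40.7 CPM in PAD4-DN, against 28.4 and 70.8 CPM in WT. In all of these PAD4-DN replicate 1 was highest, then WT replicate 2, PAD4-DN replicate 2 and WT replicate 1. Not all AP-1 genes did so: Fosl1 was at 85.2 and 82.0 CPM in PAD4-DN, against 128 and 77.9 CPM in WT. These 4 genes were singled out after their values were seen, and their part in the Ccl2 values was not tested.

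**Figure D3:**
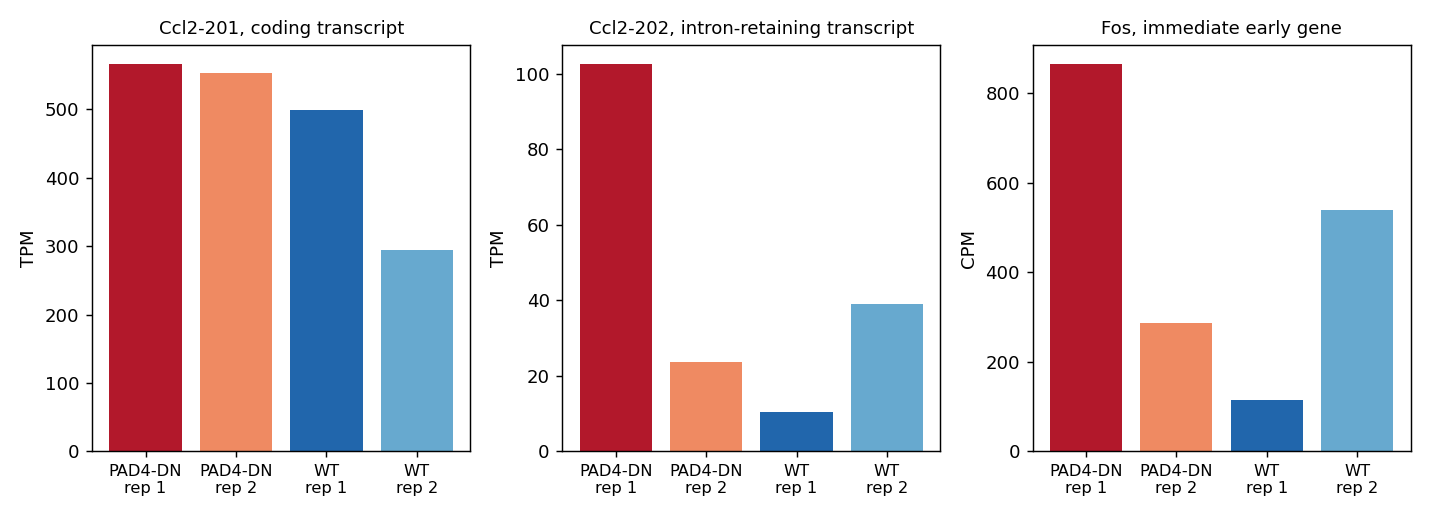
TPM of the coding transcript Ccl2-201 (left) and the intron-retaining transcript Ccl2-202 (middle), and CPM of Fos (right), 1 bar per library with no error bars. Ccl2-202 and Fos share an order over the libraries, highest in PAD4-DN replicate 1 and lowest in WT replicate 1, which differs from the order of Ccl2-201.

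Ccl8, whose protein acts on CCR8 in mice, lies in the same chemokine cluster as Ccl2 and Ccl7 and was far lower, at 9.16 and 18.0 TPM in PAD4-DN replicates 1 and 2, against 16.3 and 10.2 TPM in WT replicates 1 and 2. These values rest on 37 and 86 counts in PAD4-DN and 82 and 52 counts in WT. PAD4-DN replicate 2 and WT replicate 1 were the high libraries, the reverse of the type I collagen pattern, and the genotypes overlapped. Its log2 fold change of -0.06 (SE 0.50) became 0.34 when PAD4-DN replicate 1 was left out and -0.65 when PAD4-DN replicate 2 was. Leaving out WT replicate 1 gave 0.39, and leaving out WT replicate 2 gave -0.41.

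Csf3, Mmp3 and Mmp12 were high in the same libraries as Ccl8. The granulocyte growth factor gene Csf3 was at 1.02 and 11.2 CPM in PAD4-DN replicates 1 and 2, against 6.15 and 1.90 CPM in WT replicates 1 and 2. Mmp3, a stromelysin able to cleave several chemokines, was at 520 and 1314 CPM in PAD4-DN, against 1084 and 369 CPM in WT, and Mmp12, a metalloelastase, at 187 and 667 CPM, against 576 and 128 CPM. Mmp12 was singled out after its values were seen, while Csf3 and Mmp3 were named by rule for their p within their own lists. The likeness of all of these genes to Ccl8 was picked out from the values, and a link to Ccl8 was not tested.

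Ccl6 and Ccl9, a pair of mouse CC chemokines made mostly by myeloid cells and acting on CCR1, had one library far above the rest. Ccl6 was at 8.93 and 0.964 CPM in PAD4-DN replicates 1 and 2, against 1.98 and 3.33 CPM in WT replicates 1 and 2, a span of 9.26 times between the libraries. Ccl9 was at 8.83 and 1.43 CPM in PAD4-DN, against 3.30 and 2.66 CPM in WT. For both genes PAD4-DN replicate 1 was the highest and PAD4-DN replicate 2 the lowest of the 4, so that the WT libraries lay inside the range of the PAD4-DN libraries. The log2 fold changes were 0.89 (SE 0.96) for Ccl6 and 0.78 (SE 0.81) for Ccl9, and without PAD4-DN replicate 1 they turned to -1.47 and -1.07. They were 0.093 and 0.20 by limma-voom, and 0.24 and 0.29 with the replicate number as a block.

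Most pan-leukocyte, macrophage and monocyte markers ran highest and lowest in the same libraries as Ccl6 and Ccl9. All 9 pan-leukocyte markers and 15 of 16 macrophage and monocyte markers were highest in PAD4-DN replicate 1, and 8 and 14 of them were lowest in PAD4-DN replicate 2. The exceptions were Rac2, lowest in WT replicate 2, Adgre1, highest in WT replicate 2, and Ly6c2 and Cd163, lowest in WT replicate 1. This order was not particular to leukocytes. Of 10 erythroid and platelet markers 9 were highest in PAD4-DN replicate 1 and 6, ties at 0 included, lowest in PAD4-DN replicate 2. For 10 endothelial markers these counts were 6 and 8, and for 11 neutrophil markers 7 and 1. Lyz2, the lysozyme of macrophages and neutrophils, was at 50.9 and 4.99 CPM in PAD4-DN replicates 1 and 2, against 20.4 and 22.9 CPM in WT replicates 1 and 2. Complement C1qa of tissue macrophages was low in PAD4-DN replicate 2 alone, at 3.17 and 0.419 CPM in PAD4-DN, against 3.08 and 3.01 CPM in WT. Ptprc was likewise highest in PAD4-DN replicate 1 and lowest in PAD4-DN replicate 2. The part of leukocyte transcripts in the Ccl6 and Ccl9 values was not tested.

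Short or intron-retaining transcripts held much of the TPM of both genes. Ccl9-202, a noncoding transcript of 398 bases, held 19.2 counts in PAD4-DN replicate 1, which came to 65.0% of Ccl9 TPM there. In WT replicate 1 it held 2.11 counts and 30.1% of Ccl9 TPM, and in the other libraries none. Ccl6-202, which retains an intron, made up 49.7% and 37.6% of Ccl6 TPM in PAD4-DN, against 69.8% and 26.5% in WT. The coding transcript Ccl6-201, for a protein of 116 residues, was at 7.25 and 0.882 TPM in PAD4-DN and 1.04 and 3.25 TPM in WT.

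Cxcl12, the CXCR4 ligand of stromal niches, split the libraries more than any other gene of the set. It had 149 and 10 counts in PAD4-DN replicates 1 and 2, against 1 and 216 counts in WT replicates 1 and 2, or 7.27 and 0.419 CPM in PAD4-DN and 0.0440 and 8.57 CPM in WT. PAD4-DN replicate 1 and WT replicate 2 carried nearly all of it, 1 library of each genotype. A log2 fold change of -0.17 with an SE of 1.82 became -3.35 when PAD4-DN replicate 1 was left out and 0.75 when PAD4-DN replicate 2 was. Leaving out WT replicate 1 gave -1.16, and leaving out WT replicate 2 gave 6.27, a value that rests on 1 count in the remaining WT library. In both libraries with substantial counts the main transcript was Cxcl12-202, which encodes 89 residues, with 113 counts in PAD4-DN replicate 1 and 186 in WT replicate 2. Cxcl12-203, for 93 residues, and Cxcl12-201, for 119 residues, had 8.58 and 24.6 counts in PAD4-DN replicate 1, against 14.6 and 13.5 in WT replicate 2.

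The same split was seen in part of the fibroblast markers. Col1a1 is given above, and Col1a2, its partner chain, was at 467 and 3.94 CPM in PAD4-DN replicates 1 and 2, against 0.879 and 404 CPM in WT replicates 1 and 2. Postn, a matricellular protein gene of activated fibroblasts, was at 62.8 and 1.72 CPM in PAD4-DN, against 0.220 and 129 CPM in WT. Dcn, by contrast, was at 981 and 1045 CPM in PAD4-DN and 981 and 770 CPM in WT, with no such split. Mmp2, whose product cleaves CXCL12 and CCL7, had 923 and 24 counts in PAD4-DN, against 0 and 989 in WT, and Dpp4, which trims CXCL12, had 96 and 0 counts in PAD4-DN, against 0 and 87 in WT. Col1a2, Postn, Mmp2 and Dpp4 were singled out after their values were seen, and the part of fibroblast transcripts in the Cxcl12 values was not tested.

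**Figure D4:**
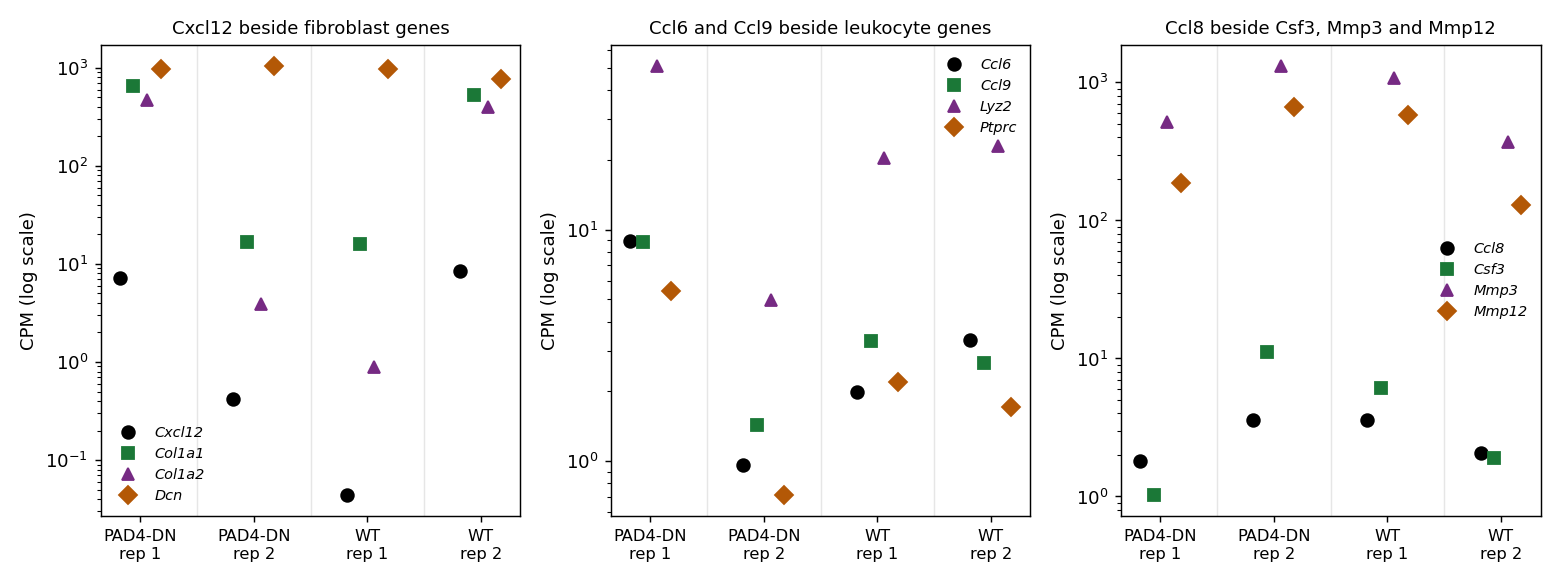
CPM (log scale) in the 4 libraries of Cxcl12 with Col1a1, Col1a2 and Dcn (left), of Ccl6 and Ccl9 with Lyz2 and Ptprc (middle), and of Ccl8 with Csf3, Mmp3 and Mmp12 (right), 1 symbol per gene and library. Cxcl12 and type I collagen are high in PAD4-DN replicate 1 and WT replicate 2, Ccl6, Ccl9, Lyz2 and Ptprc peak in PAD4-DN replicate 1, and the genes on the right are high in PAD4-DN replicate 2 and WT replicate 1.

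Cx3cl1, the tethered chemokine, was steady by comparison, at 22.9 and 20.9 CPM in PAD4-DN replicates 1 and 2, against 23.5 and 29.4 CPM in WT replicates 1 and 2. Both PAD4-DN libraries were below both WT libraries on this scale, but PAD4-DN replicate 1 lay just under WT replicate 1. Its log2 fold change of -0.27 (SE 0.16, edgeR adjusted p = 0.988) shrank to -0.10 when WT replicate 2 was left out. In TPM the groups overlapped, at 10.5 and 10.9 in PAD4-DN and 10.5 and 13.3 in WT. The transcript Cx3cl1-201, for the full protein of 395 residues, held 469 and 494 counts in PAD4-DN, against 529 and 740 in WT, and made up at least 85.9% of Cx3cl1 TPM in every library.

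Csf1, the main growth factor of the macrophage lineage, was at 187.2 and 159.8 CPM in PAD4-DN replicates 1 and 2, against 192.9 and 193.1 CPM in WT replicates 1 and 2. PAD4-DN replicate 1 came close to the WT libraries and PAD4-DN replicate 2 was the low one. For Csf1 the log2 fold change was -0.15 (SE 0.14, edgeR adjusted p = 0.988). It came to -0.28 when PAD4-DN replicate 1 was left out and to -0.05 when PAD4-DN replicate 2 was. In TPM the PAD4-DN libraries lay on either side of WT, at 98.1 and 72.2 in PAD4-DN, against 82.3 and 82.7 in WT, and the limma-trend fit on log2(TPM + 1) gave 0.029.

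Most Csf1 RNA was assigned to transcripts for the long precursor of 552 residues. Csf1-201 was at 44.3 and 42.8 TPM in PAD4-DN replicates 1 and 2, against 45.3 and 54.3 TPM in WT replicates 1 and 2, and Csf1-203, with the same coding length in a shorter transcript, at 14.3 and 10.7 TPM in PAD4-DN and 14.7 and 9.67 TPM in WT. Csf1-202 encodes a shorter precursor of 257 residues and was at 14.6 and 6.88 TPM in PAD4-DN, against 12.2 and 7.38 TPM in WT. It was thus higher in replicate 1 of each genotype, with no separation of the genotypes. The high Csf1 TPM of PAD4-DN replicate 1 came with 2 short transcripts of 821 and 836 bases, at 4.13 and 6.38 TPM there, of which the longer was listed at 0 in the other libraries.

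Il34, the other CSF1R ligand, was about as even over the libraries as Csf1, at 14.1 and 16.9 CPM in PAD4-DN replicates 1 and 2, against 16.7 and 15.3 CPM in WT replicates 1 and 2. The groups overlapped in CPM, with a log2 fold change of -0.05 (SE 0.17) that came to 0.072 without PAD4-DN replicate 1 and 0.017 without WT replicate 1. In TPM both PAD4-DN libraries were higher, at 22.3 and 23.7, against 21.5 and 20.9 in WT, and the fit on log2(TPM + 1) gave 0.11, so the direction depends on the unit. Il34-201, for 235 residues, held 35.3% and 43.8% of Il34 TPM in PAD4-DN, against 48.1% and 50.1% in WT. Csf1 stood at 4.39 and 3.04 times the Il34 TPM in PAD4-DN and at 3.82 and 3.96 times in WT. The annotation used for names places genes on the opposite strand over Il34, Ccl2 and Ccl6; the libraries were strand-specific, but whether strand was used in counting is not given in the sources used here, so antisense reads cannot be told apart there. Over Ccl2 that gene is Gm17268, which had 0 counts in all 4 libraries.

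The receptors of these ligands were mostly scarce in the sorted cells. Of 13 receptor genes listed, 8 were abundant enough to test and none passed by edgeR at an adjusted p of 0.05 or had an unadjusted p under 0.05; their median log2 fold change was 0.46, against 0.01 over all genes tested. Csf1r was at 5.76 and 0.503 CPM in PAD4-DN replicates 1 and 2, against 3.52 and 3.01 CPM in WT replicates 1 and 2. It was again highest and lowest within PAD4-DN, like most pan-leukocyte and macrophage markers, and was singled out after its values were seen. The CCR2 gene was at 5.56 and 1.01 CPM in PAD4-DN and 1.49 and 1.47 CPM in WT, and Ccr1 at 4.83 and 0.335 CPM, against 1.14 and 0.833 CPM. The syndecan gene Sdc1, whose product binds IL-34, was the highest of the receptor genes per length, at 76.8 and 86.9 TPM in PAD4-DN and 82.4 and 59.3 TPM in WT, and was also chosen after its values were seen.

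Among 16 other CC chemokine genes only 4 could be tested, and none passed by edgeR at an adjusted p of 0.05 or reached an unadjusted p under 0.05. Ccl11, the eotaxin gene that follows Ccl7 on the chromosome, was the highest per length, at 64.3 and 32.0 TPM in PAD4-DN replicates 1 and 2, against 33.1 and 29.7 TPM in WT replicates 1 and 2. PAD4-DN replicate 1 alone stood out, so that Ccl11 did not separate the genotypes as its neighbours Ccl2 and Ccl7 did. Ccl12, next to Ccl8, was at 0.634 and 1.13 CPM in PAD4-DN and 0.484 and 0.674 CPM in WT, and the mucosal chemokine gene Ccl28 at 1.56 and 2.52 CPM, against 1.63 and 1.11 CPM. The 4 other growth factor genes tested, of 6 listed, also gave no call; Flt3l was at 1.95 and 3.98 CPM in PAD4-DN, against 3.87 and 3.25 CPM in WT, and Csf2 at 0.488 and 0.838 CPM, against 0.747 and 0.357 CPM.

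Of 9 proteases that act on the ligands, all were tested and none passed by edgeR at an adjusted p of 0.05 or reached an unadjusted p under 0.05. The sheddase genes of CX3CL1 and CSF1 were even over the libraries, Adam10 at 271 and 352 CPM in PAD4-DN replicates 1 and 2, against 304 and 292 CPM in WT replicates 1 and 2, and Adam17 at 245 and 314 CPM, against 270.3 and 257 CPM; they were named after their values were seen. Mmp9 was the only one of the 9 with both PAD4-DN libraries below both WT libraries (17.4% of all genes tested), at 1.90 and 2.98 CPM in PAD4-DN, against 3.91 and 3.69 CPM in WT. Mmp14, a membrane-bound metalloproteinase, was at 781 and 593 CPM in PAD4-DN and 664 and 568 CPM in WT.

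Genes that act upstream of chemokine transcription gave no call at an adjusted p of 0.05 by edgeR either. Of 21 transcription and mRNA decay genes, all tested, 1 had an unadjusted p under 0.05 (2.65% of all genes tested, 1.42% on the lower side): Nfkb2, at 71.4 and 74.2 CPM in PAD4-DN replicates 1 and 2, against 85.5 and 92.6 CPM in WT replicates 1 and 2 (log2 fold change -0.29, SE 0.11). The NF-kB subunit gene Rela was at 69.1 and 59.9 CPM in PAD4-DN, against 84.0 and 70.9 CPM in WT, also below both WT libraries. Nfkbia, the NF-kB inhibitor and target gene, was at 286 and 164 CPM in PAD4-DN and 107 and 181 CPM in WT, in the order of Fos. Over the list 3 genes had both PAD4-DN libraries below and 0 had both above, against 17.4% and 15.4% of all genes tested.

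Of 12 upstream cytokines and receptors 10 were tested, with 0 at an adjusted or an unadjusted p under 0.05 by edgeR. The IL-1 receptor gene Il1r1, through which IL-1 induces CCL2 and CCL7, was at 284 and 301 CPM in PAD4-DN replicates 1 and 2, against 262 and 225 CPM in WT replicates 1 and 2, and Tnfrsf1b, a TNF receptor gene, at 3.32 and 1.64 CPM, against 1.45 and 1.51 CPM. These 2 of the 10 genes had both PAD4-DN libraries above both WT libraries, against 15.4% of all genes tested. Il1b itself was at 13.8 and 1.01 CPM in PAD4-DN and 1.32 and 2.02 CPM in WT, peaking in PAD4-DN replicate 1 like Ccl6 and Ccl9.

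Genes with the most similar profile over the 4 libraries were sought for the 5 ligand genes averaging at least 5 CPM, by Euclidean distance between centred log2 CPM among protein-coding genes of at least that mean level and a range of at least 0.9 times the ligand's own. Ccl2 lay nearest to Olfr1033 (distance 0.07), Dhdh (0.11) and Errfi1 (0.14) among 633 candidates, and Errfi1, a feedback inhibitor of EGFR, was at 462 and 369 CPM in PAD4-DN replicates 1 and 2, against 398 and 247 CPM in WT replicates 1 and 2. Ccl7 lay nearest to Ppp1r16b (0.16), Pecam1 (0.18) and Bbs1 (0.20) among 520. Pecam1, an endothelial and leukocyte adhesion molecule, was at 57.7 and 33.2 CPM in PAD4-DN and 33.4 and 26.8 CPM in WT, while the endothelial cadherin gene Cdh5, chosen after its values were seen, was at 4.59 and 1.26 CPM, against 3.91 and 2.86 CPM. The 9 other endothelial markers, none of them at 0 counts, summed to 11.2 and 9.41 TPM in PAD4-DN and 9.25 and 9.95 TPM in WT, which overlap. The flatter genes had more candidates and nearer ones: Cpt1c, Spns2 and Rfc5 for Cx3cl1 (0.025 to 0.035, of 3428), Slc38a10, Vps25 and Pear1 for Csf1 (0.014 to 0.017, of 7221) and Wac, Uhrf1bp1l and Sdhd for Il34 (0.012 to 0.022, of 7331). The likeness over 4 libraries is given as a description only.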

How the data were processed

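Poly-A libraries from 100 ng of total RNA, with 13 PCR cycles and 75-cycle single-end reads per the labels' protocols, were analysed from 2 PAD4-DN and 2 WT samples. Per the submitters' processing notes the tool and build named were kallisto and GRCm39, with the tool's version, its annotation and use of strand not given in the sources used here. The authors deposited, per the file headers, for each of 117486 transcripts, the length, effective length, estimated counts (not normalized, not whole) and TPM (scaled for effective length, summing to 1000000 per library). Transcripts were matched without version to GENCODE M21, an earlier build used for names and coding lengths only: 116408 matched, and the 1078 others, at most 0.493% of counts in any library, were left out. All 31 transcripts of the 9 genes had the same length there as in the files. Estimated counts were summed over 35905 genes and rounded, and TPM were summed likewise.

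PAD4-DN was compared with WT, without a replicate block, by edgeR 4.0.16 (R 4.3.3; TMM, filterByExpr, 13718 genes, quasi-likelihood test, Benjamini-Hochberg at 0.05). All 9 ligand genes passed the filter. CPM use TMM-scaled totals. Alternatives were DESeq2 1.42.0, limma-voom and limma-trend (limma 3.58.1), other scaling and filters, a replicate block and each library left out; a crossed block and coding transcripts alone were added after the data were seen. The ligand genes and lists were chosen with earlier results of these data known. Named genes were all 9 members, the 3 smallest p of each pathway list, 9 defining markers and the 3 nearest profiles per member, of which one gene is not reported here; others are said to be chosen after their values were seen. Limits from counts cover counting error only, since reads amplified by PCR and lacking molecular identifiers need not be separate molecules. An exact permutation test of 2 against 2 libraries cannot go below p = 0.333.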

Additional observations from a re-analysis of the deposited data

How the results depend on the processing

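No ligand gene was called under any alternative tried. The number of genes called over the whole table was 0 by edgeR, 11 by DESeq2 on the same genes and 10 by edgeR without the low-count filter, and with each library left out it ran from 0 to 2. With 1 library left in a group, that library is assumed to vary like the other pair. With the replicate number as a block edgeR called 0 genes, with 309 at an unadjusted p under 0.05 against 364 without it. Same-numbered libraries deviated from their group means in opposite directions (r = -0.34 across 13718 genes, which are not independent replicates), and a block pairing the numbers crosswise, chosen after seeing the data, also called 0, with 412.

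Ccl2, Ccl7, Cx3cl1, Csf1, Ccl8, Ccl6 and Ccl9 kept their direction under the other tools, scalings, filters and the block, except Csf1 on the TPM scale. The log2 fold change of Csf1 was 0.029 by limma-trend on log2(TPM + 1), with or without a filter, and on log2(TPM + 0.1), and that of Il34 was 0.11, 0.11 and 0.12. For Cxcl12 it was 1.01 by limma-voom, 0.021 on log2(TPM + 1) with and without a filter, 0.64 on log2(TPM + 0.1) and 0.55 with the replicate block. The cause of these changes was not tested. With each library left out, values ran from -3.35 to 6.27 for Cxcl12, from -1.47 to 1.74 for Ccl6, from -1.07 to 1.56 for Ccl9, from -0.65 to 0.39 for Ccl8 and from -0.19 to 0.072 for Il34. A mean of at least 5 CPM left out Ccl8, Ccl6, Ccl9 and Cxcl12. The Cxcl12 value of 6.27, from the fit without WT replicate 2, rests on 1 count in WT replicate 1.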
